A study of Vitis vinifera with 18 samples.

Results

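In ripe berries of 2 red grapevine varieties, 62 transcript clusters stood apart at the Campania site in both varieties. Of these, 37 were higher and 25 were lower at Campania than at Molise and Sicily. They came from 13971 clusters that had at least 20 counts in all 17 libraries used, out of 97442 clusters in all. Counts were divided by median-of-ratios size factors, taken to log2 and averaged per variety and site. A cluster was chosen where its Campania mean lay at least 0.6 above (or at least 0.6 below) both the Molise and the Sicily mean, and by more than Molise and Sicily differed from each other, in both varieties. The members were thus chosen by their measured site means in these same libraries, so their site differences are given as a description and carry no test. The upper limit of 200 members was not reached.

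The study measured gene expression by RNA sequencing in fully ripe berries of Aglianico, native to the south of Italy, and of Cabernet Sauvignon, grown worldwide, both from open fields in Campania, Molise and Sicily. There were 6 groups (a variety at a site) of 3 biological replicates, each of 10 berries without their seeds, and the vines of all groups were bush trained and spur pruned. The question was how genotype and environment interact. The labels give each region as a single site, so the soil, weather, vine age and harvest date of a site cannot be told apart.

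During ripening, grape berries take up sugar, lose acid and, in red varieties, build anthocyanin pigments in the skin. The pace and extent of these changes vary with temperature, light and water supply as well as with genotype, and the response of a single genotype to different sites is called its plasticity. The file numbers its clusters and names no genes. Against the RefSeq gene table of Vitis vinifera, 0 identifiers matched, so no role is given to any cluster and the tissue could not be checked against marker genes.

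The 18 libraries held 22637307 to 31859647 counts. The library labelled Aglianico Campania replicate 3 stood apart: over the 13971 kept clusters its mean correlation with the libraries of Cabernet Sauvignon Campania was 0.982, and that with the remaining Aglianico Campania libraries was 0.908. The rule left it out, so Aglianico Campania rests on 2 libraries, and its values are given below as those of the left-out library. The number of clusters with 10 or more counts was 45079 in Cabernet Sauvignon Sicily replicate 2 and 29212 in the unnumbered library of that group, whose column carries no legible replicate number, against 19155 to 25443 elsewhere.

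Few clusters met the thresholds at Campania in the same direction in both varieties. In Aglianico 432 clusters met them for higher and 491 for lower levels, and in Cabernet Sauvignon 672 and 423. The 37 shared higher clusters (0.265% of the kept clusters) were 8.56% of the Aglianico list and 5.51% of the Cabernet Sauvignon list. Of all kept clusters, 4.81% met the thresholds for higher levels in Cabernet Sauvignon and 3.09% in Aglianico. The 25 shared lower clusters (0.179% of the kept clusters) were 5.09% and 5.91% of the lists. Of all kept clusters, 3.03% met the thresholds for lower levels in Cabernet Sauvignon and 3.51% in Aglianico. The sharing was not tested against these shares. A further 71 clusters met the thresholds in opposite directions, 53 of them lower in Aglianico and higher in Cabernet Sauvignon, and 18 the reverse.

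The offset of Campania from the mean of the other sites was of the same sign in both varieties for 48.6% of the 13971 kept clusters. Its Pearson correlation between the varieties was -0.003 across these clusters, which share libraries and scaling and are not independent replicates. The same correlation was 0.315 for the offset of Molise and 0.11 for that of Sicily. With the same thresholds and no upper limit, 101 clusters were set apart at Molise and 276 at Sicily in both varieties, beside 21 and 144 in opposite directions. The differences between sites in these numbers were not tested.

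**Figure D1:**
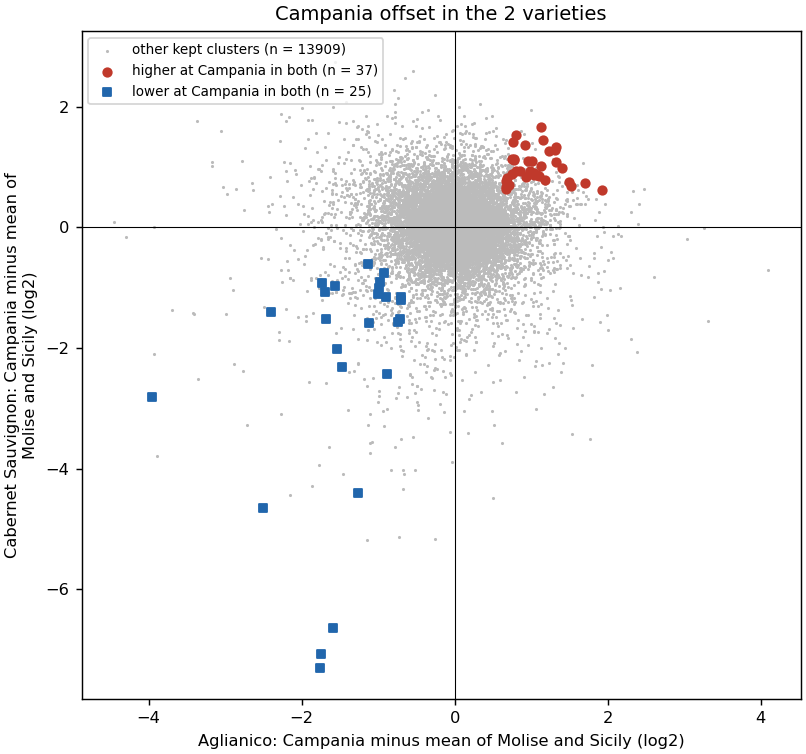
Each point is a kept cluster, with its Campania offset (log2 Campania mean minus the mean of the Molise and Sicily means) in Aglianico on the x axis and in Cabernet Sauvignon on the y axis; red circles are the 37 higher and blue squares the 25 lower members. The cloud of all kept clusters, members included, has no tilt (r = -0.003), and the lower members reach further from 0 than the higher members.

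The higher members differed from the nearer site by modest amounts. Their distance from the nearer of the Molise and Sicily means had a median of 0.83 on the log2 scale in Aglianico (range 0.62 to 1.51), a 1.78-fold difference. In Cabernet Sauvignon the median was 0.76 (range 0.605 to 1.39), or 1.69-fold. A single higher member passed 1 in both varieties. In RNA from whole tissue, fewer cells of a type and less RNA per cell cannot be told apart.

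Cluster-27903.22229 had the largest smaller distance of the higher members. Its normalised counts in Aglianico were 122.6 and 72.3 in the 2 Campania libraries, 46.3, 52.2 and 41.8 at Molise, and 36.5, 44.2 and 34.5 at Sicily. In Cabernet Sauvignon they were 68.6, 53.1 and 66.6 at Campania, 28.6, 20.8 and 17.75 at Molise, and 21.7, 22.55 and 27.4 at Sicily. Campania did not overlap with the other sites in either variety, and the left-out library, at 56.3, lay above all 12 Molise and Sicily libraries. The means were 97.4 ± 35.5 (SD, n = 2) at Campania, 46.8 ± 5.24 at Molise and 38.4 ± 5.13 at Sicily in Aglianico (n = 3 each), and 62.8 ± 8.45, 22.4 ± 5.61 and 23.9 ± 3.11 in Cabernet Sauvignon (n = 3 each). Campania lay 1.02 above the nearer site in Aglianico (2.02-fold) and 1.39 above it in Cabernet Sauvignon (2.62-fold, log2 scale). The Aglianico distance was 0.63 without Aglianico Campania replicate 1 and 1.40 without replicate 2. The cluster is scarce, with 21 counts in its lowest library.

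Cluster-27903.33266 had the most counts of the higher members (not corrected for transcript length, which the sources used here do not give). In Aglianico it held 1618 and 1357 normalised counts at Campania, 864, 951 and 944 at Molise, and 739, 779 and 819 at Sicily. In Cabernet Sauvignon it held 927, 1005 and 1017 at Campania, 699, 555 and 589 at Molise, and 546.5, 376 and 391 at Sicily. The order Campania, Molise, Sicily was the same in both varieties, with no overlap between any pair of sites within a variety. The distance from the nearer site was 0.69 in Aglianico and 0.68 in Cabernet Sauvignon, 1.61-fold in each, with a within-group SD of 0.17 on the log2 scale. The left-out library held 1238, between the Campania levels of the 2 varieties.

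Summed over the 37 higher members, the unscaled share of all counts was 0.035% to 0.0542% in the Campania libraries, the left-out one included, and 0.0138% to 0.0272% in the Molise and Sicily libraries, without overlap. The rule chose these members by the same libraries, the left-out one aside, so the separation is in part fixed. The top share, in Cabernet Sauvignon Campania replicate 1, includes members high in that library alone of its group, described below.

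The lower members spread more widely. Their median distance from the nearer site was -1.05 in Aglianico (range -2.83 to -0.66), or 2.07-fold lower. In Cabernet Sauvignon it was -1.26 (range -5.13 to -0.605), or 2.39-fold lower. The distance was larger in Cabernet Sauvignon for 17 of the 25, and 9 of the 25 passed 1 in both varieties. Their summed share of all counts was 0.0276% to 0.0707% in the Campania libraries and 0.0516% to 0.768% elsewhere, so that the sites overlapped slightly. The highest shares were in Cabernet Sauvignon Sicily (0.359% to 0.768%) and Aglianico Molise replicate 2 (0.368%). These libraries also held the most counts of 3 members that moved together, described below. The share without those 3 was not computed.

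Cluster-27903.36453 had the largest smaller distance of the lower members. In Aglianico it held 18.25 and 67.3 normalised counts at Campania, 1317, 976 and 1259 at Molise, and 114, 403 and 339 at Sicily. In Cabernet Sauvignon it held 186.5, 158 and 206 at Campania, 862, 1142 and 805 at Molise, and 2102, 1277 and 2000 at Sicily. All Campania libraries used lay below every other library of their variety, but the highest site was Molise in Aglianico and Sicily in Cabernet Sauvignon, without overlap between them. This opposite order of Molise and Sicily was shown by 1 of the 25 lower and 0 of the 37 higher members, and by 2.4% of the kept clusters. The distance from the nearer site was -2.83 in Aglianico (7.13-fold lower) and -2.34 in Cabernet Sauvignon (5.08-fold lower). In Aglianico it was -1.89 without Campania replicate 1 and -3.77 without replicate 2, and -1.94 with the left-out library, which held 224. Its values were not whole in 94.1% of the 17 libraries, and Aglianico Campania replicate 1 had 21 counts.

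**Figure D2:**
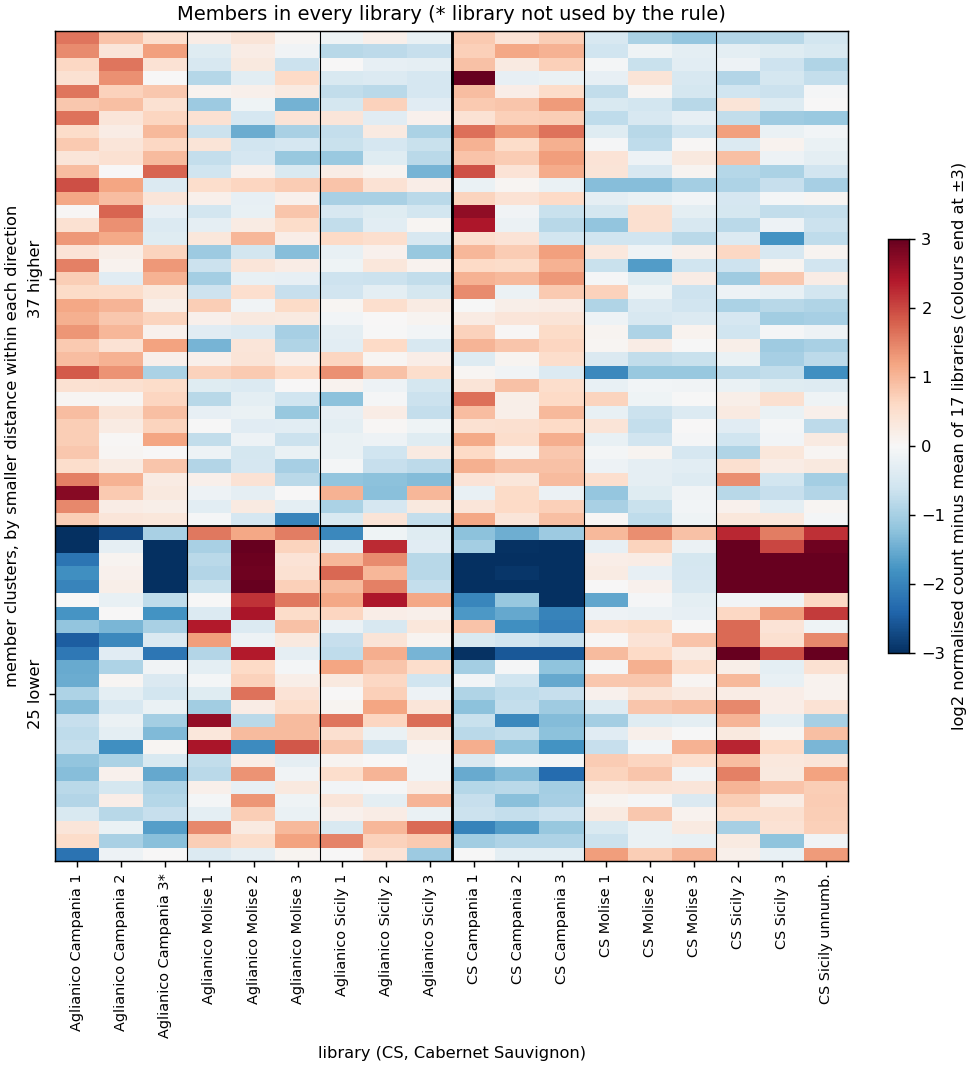
Rows are the 62 members (higher above the line, lower beneath it) and columns the 18 libraries; colour gives the log2 normalised count minus the mean of the cluster over the 17 libraries used, and the asterisk marks the left-out library. Campania columns are mostly red for the 37 higher and blue for the 25 lower members, with exceptions in single clusters and libraries. For the lower members the palest Campania column is Aglianico Campania replicate 2 (median -0.298, against -1.27 to -0.965 in the other Campania libraries).

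Cluster-27903.33962 had the most counts of the lower members and belonged to a set of 3 lower members that moved together. Its normalised counts in Aglianico were 558 and 2671 at Campania, 1460, 19540 and 3404 at Molise, and 5042, 6816 and 1431 at Sicily, so that the sites overlapped. In Cabernet Sauvignon they were 43.5, 242 and 53.8 at Campania, 2926, 2986 and 1774 at Molise, and 55470, 30400 and 72950 at Sicily, with no overlap between any pair of sites. The distance from the nearer site was -1.58 in Aglianico (3-fold lower) and -4.91 in Cabernet Sauvignon (30.1-fold lower). The within-group SD of 1.26 on the log2 scale was large beside the Aglianico distance, which was -0.46 and -2.71 when replicate 1 or 2 of Aglianico Campania was left out and -0.87 when Aglianico Molise replicate 2 was. With the left-out library, which held 167.5, it was -2.54.

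Deviations from the group means in these 3 clusters correlated at 0.963 to 0.996 over the 17 libraries. Summed over the 3, the normalised counts of Cabernet Sauvignon were 112, 725 and 148 at Campania, 7744, 6996 and 4829 at Molise, and 128600, 72530 and 202000 at Sicily. Those of Aglianico were 1717 and 7432 at Campania, 3917, 56540 and 9721 at Molise, and 17060, 16690 and 3917 at Sicily. The sums were thus separate by site in Cabernet Sauvignon and overlapped in Aglianico. Between 94.1% and 100% of their values were not whole numbers, against a median of 17.6% over the kept clusters. Values that are not whole arise where reads are divided between clusters, so the counts of these 3 are uncertain. With which clusters they share reads was not tested. A pair of higher members likewise deviated together (r = 0.955), and both were high in Cabernet Sauvignon Campania replicate 1 alone of its group. In that library there were 2419 normalised counts of the more counted one against 360 and 241 in the other two, and 444 of the less counted one against 46.7 and 47.5. For the more counted one those other libraries overlapped with Cabernet Sauvignon Molise (268, 535 and 317). Another higher member, Cluster-27903.38857, was also high in that library, with 687 against 113 and 71.3.

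**Figure D3:**
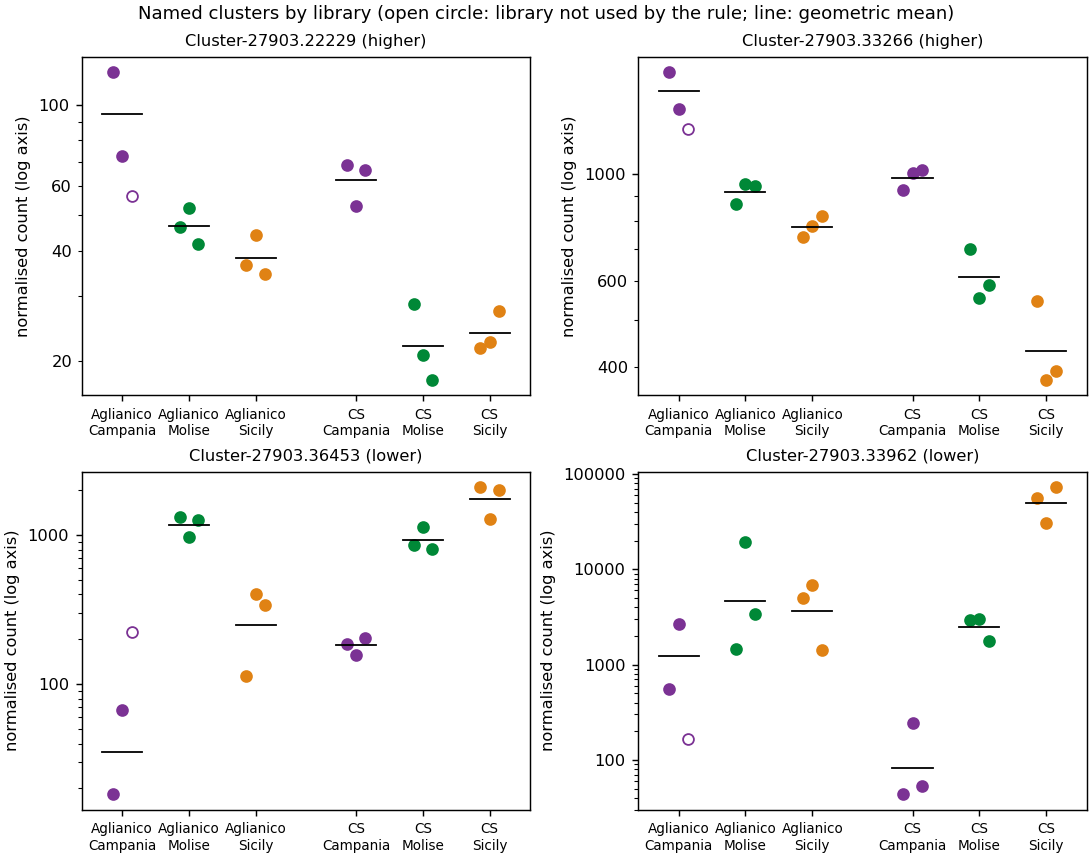
Normalised counts (log axis) of the 4 clusters named for their site pattern, by variety (CS, Cabernet Sauvignon) and site; each circle is a library, the open circle is the left-out library and the line is the geometric mean of the libraries used. The Campania libraries used do not overlap with the other sites except for Cluster-27903.33962 in Aglianico, where Campania replicate 2 (2671) lies among the Molise and Sicily libraries.

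Replicate libraries overlapped between sites for many members. Campania lay above every Molise and Sicily library of the variety for 22 of the 37 higher members in Aglianico (8.15% of the kept clusters did so) and for 24 in Cabernet Sauvignon (9.87%). In both varieties at once this held for 14 of the 37 (0.544%), and for 5 over the 17 libraries pooled (0.229%). Campania lay below every other library for 10 of the 25 lower members in Aglianico (7.64%) and 17 in Cabernet Sauvignon (10.5%), for 6 in both (0.573%) and for 2 over the 17 libraries pooled (0.15%). The rule used these values, so the shares are printed for reference only.

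Which clusters belonged to the 62 depended on single libraries, at Campania and at the other sites. Without Aglianico Campania replicate 1 there were 27 higher and 15 lower clusters, of which 19 and 11 were among the original members. Without Aglianico Campania replicate 2 there were 93 and 41, which held 35 and 22 of the original members. Without Cabernet Sauvignon Campania replicate 1 there were 29 and 27, which held 25 and 22. Without its replicate 2 there were 66 and 32, which held 34 and 22. At the other sites, there were 32 and 20 without Aglianico Molise replicate 2, which held 31 and 17. Without Aglianico Sicily replicate 3 there were 33 and 31, which held 28 and 22. Leaving out each of the 17 libraries in turn, 3 of the 37 higher and 2 of the 25 lower members were chosen every time, with Cluster-27903.22229 among the 3. With all 18 libraries under their labels there were 43 higher and 30 lower clusters, which held 26 and 21 of the original members. When the unnumbered library of Cabernet Sauvignon Sicily and its replicate 2 were both left out there were 31 and 35, which held 25 and 20. Of the 62 members, 59.7% were higher at Campania. With size factors taken over every cluster that had a count in all libraries, there were 20 higher and 31 lower clusters (39.2% higher). That scaling lowered the median Campania offset of the kept clusters by 0.10 on the log2 scale in Aglianico.

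Close to the threshold, the last higher members had smaller distances of 0.6047 to 0.6051 and the next clusters 0.5852 to 0.5953. The last lower members had 0.6046 to 0.6644 and the next clusters 0.5529 to 0.5967. Among the higher members, 19 of the 37 lay between 0.6 and 0.7. A further 48 clusters were at least 0.6 below both sites in both varieties but were left out because Sicily and Molise differed more, against 5 such clusters above both sites. Since every library had to hold 20 counts, a cluster silent at Campania could not be a member. With 20 counts in every Molise and Sicily library, 173 clusters fell short in a Campania library. With 20 counts in every Campania library used, 2471 fell short elsewhere. These 2 numbers are not alike, since the second asks fewer libraries to pass and lets any of 12 fall short. The counts were also not scaled, with size factors of 0.996 to 1.262 in the Campania libraries used and 0.696 to 1.258 elsewhere. As to clusters switched fully, 0 of the 97442 had 20 counts in all Molise and Sicily libraries and none in the Campania libraries used, and 0 had the reverse.

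The higher and lower members differed in how much they were counted. With the kept clusters split by mean normalised count into 4 equal classes, 27 of the 37 higher members lay in the lowest class and 0 in the highest, whereas 1 of the 25 lower members lay in the lowest class and 7 in the highest. The median was 113 for the higher members, 799 for the lower members and 488 for the kept clusters. Of the 17 libraries averaged, 12 were from Molise and Sicily, where the rule makes higher members low and lower members high. Part of this contrast therefore follows from the choice. In 18 of the 37 higher members (48.6%) the lowest library had fewer than 30 counts, as it had in 4 of the 25 lower members (16%) and 7.54% of the kept clusters. The part of counting error in the choice of members was not tested, but with at least 50 counts required in every library 12 higher and 17 lower clusters met the rule. The median within-group SD on the log2 scale was 0.42 for the higher members, 0.67 for the lower members and 0.25 for the kept clusters.

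Within groups the members moved together only weakly. The mean pairwise correlation of their deviations from group means was 0.088 among the 37 higher members and 0.162 among the 25 lower members, against 0.001 over all kept clusters. Between higher and lower members it was -0.028. These are descriptions over 17 libraries that all clusters share.

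The order of the Molise and Sicily means, whose sign the rule did not fix, differed between the varieties among the lower members. In Aglianico that order leaned on 1 Molise library, as given below. Sicily was below Molise for 18 of the 25 in Aglianico and above it for 20 of the 25 in Cabernet Sauvignon, with median differences of -0.15 and 0.49 on the log2 scale. The sign was the same in both varieties for 8 of the 25, against 61% of the kept clusters. Among the higher members it was the same for 20 of the 37, and Sicily was below Molise for 19 in Aglianico and 22 in Cabernet Sauvignon. Over the kept clusters, Sicily was above Molise for 50.1% in Aglianico and 50.3% in Cabernet Sauvignon. The rule limited the size of these differences, and they were not tested. Over the lower members, the median log2 level from the cluster mean was 0.728 in Aglianico Molise replicate 2. It was -0.3 and 0.46 in replicates 1 and 3, and 0.083 to 0.64 in the Aglianico Sicily libraries. The Aglianico order thus leaned on a single Molise library, and the counts without it were not computed. The set of 3 that moved together counts as 3 members here.

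**Figure D4:**
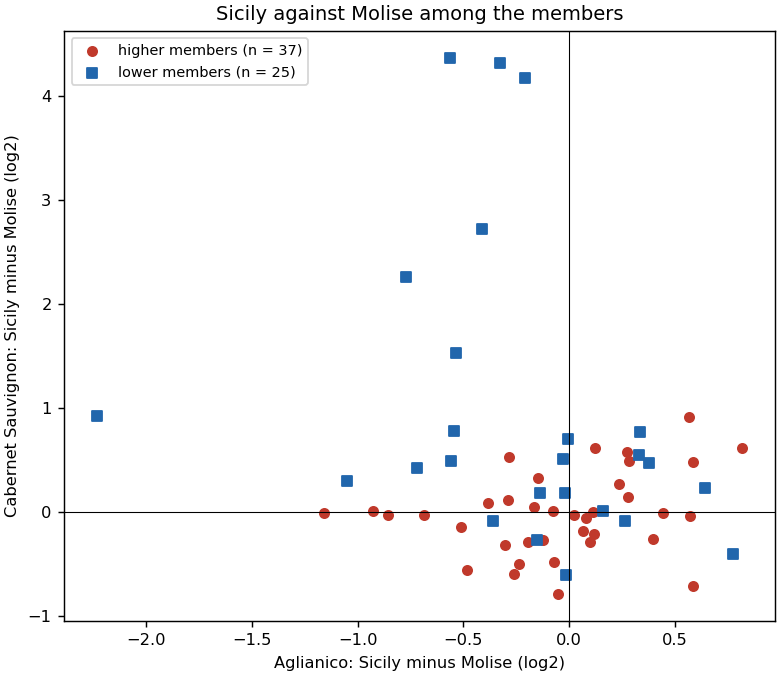
Each point is a member, with the log2 difference of Sicily minus Molise in Aglianico on the x axis and in Cabernet Sauvignon on the y axis; red circles are the 37 higher and blue squares the 25 lower members. Most lower members lie left of 0 in Aglianico (18 of 25) and above 0 in Cabernet Sauvignon (20 of 25), while the higher members scatter around 0. The Aglianico values of the lower members lean on Molise replicate 2.

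The values of the left-out library played no part in the choice of members, but the Molise and Sicily libraries it is set against did. Members were chosen for low or high levels at those sites, so a library will lie on the Campania side of them more often than for other clusters by the choice alone, and the shares of the kept clusters are printed for reference only. The left-out library lay above both Aglianico site means for 30 of the 37 higher members, against 34.5% of the kept clusters, and above both Cabernet Sauvignon site means for 35 of the 37, against 34.4%. It lay below both Aglianico site means for 24 of the 25 lower members (34.5% of the kept clusters) and below both Cabernet Sauvignon site means for 25 of the 25 (34.6%). Its median distance from the nearer site was 0.60 (Aglianico) and 0.69 (Cabernet Sauvignon) for the higher members and -1.21 and -1.09 for the lower members. It lay beyond every Molise and Sicily library of Aglianico for 22 of the 37 higher members (20.7% of the kept clusters) and 17 of the 25 lower members (20.9%). Against Cabernet Sauvignon these numbers were 28 of the 37 (20.9%) and 20 of the 25 (21.1%).

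For these reasons, and because it is 1 library, the counts are a description and carry no test. For 30 of the 37 higher and 21 of the 25 lower members its level was nearer to the Cabernet Sauvignon Campania mean than to the Aglianico one, as it was for 78.2% of the kept clusters. Whether it represents Aglianico, as its label says, cannot be told from these values.

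**Figure D5:**
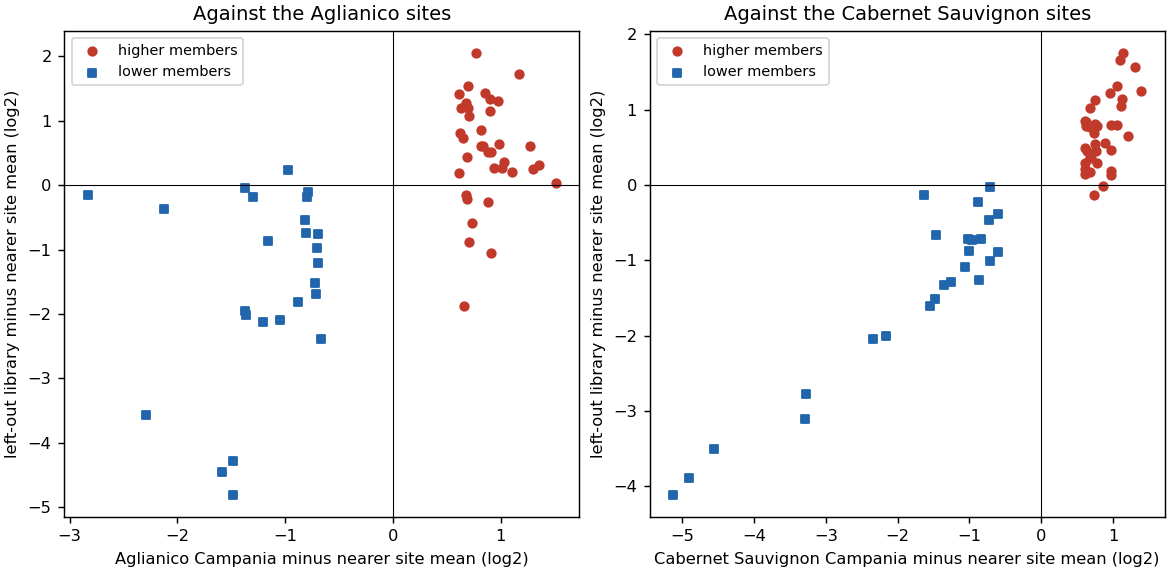
Each point is a member; the x axis gives the Campania mean of the libraries used minus the nearer of the Molise and Sicily means, and the y axis the left-out library minus the same site mean (log2), against Aglianico on the left and Cabernet Sauvignon on the right. Higher members (red circles) lie above 0 on the y axis in 30 and 35 of 37 cases and lower members (blue squares) beneath it in 24 and 25 of 25; both axes subtract a site mean that chose the members, which in part fixes this.

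The rule never compared the varieties with each other, so this difference was tested over all 29738 clusters that passed the filter of edgeR, by its quasi-likelihood test. Averaged over the sites, 21 of the 62 members (33.9%) differed between Cabernet Sauvignon and Aglianico at an adjusted p under 0.05, close to the 30.1% of all clusters tested. Of the 37 higher members, 5 were higher in Cabernet Sauvignon and 9 lower. Of the 25 lower members, 3 were higher in Cabernet Sauvignon and 4 lower. Of all clusters tested, 15.3% were higher and 14.8% lower. The p-values measure the spread between samples of the same site, and each variety was grown at 1 place per region. The clusters tested were more numerous than the 13971 kept ones and held clusters with fewer than 20 counts in a library, which the rule excludes. The share called among the kept clusters was not computed, here or at Campania alone. Without Aglianico Campania replicate 1 or 2 that group had 1 library and the filter admitted 55802 or 56086 clusters, so the counts and shares of those fits are not compared.

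Cluster-27903.30205, a higher member, had the largest called difference towards Aglianico. In Aglianico it held 657 and 467 normalised counts at Campania, 298, 318.5 and 277 at Molise, and 478, 337 and 267 at Sicily. In Cabernet Sauvignon it held 192, 170.2 and 138 at Campania, 48.5, 83.7 and 83.1 at Molise, and 105, 109.8 and 51.3 at Sicily. Every Aglianico library used lay above every Cabernet Sauvignon library. The left-out library, at 95.1, lay within the Cabernet Sauvignon range. The log2 difference was -2.00 ± 0.18 (SE, edgeR adjusted p = 3.25e-06), and the adjusted p ranged from 3.31e-24 to 0.000518 over 27 alternative settings.

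Cluster-27903.36453, described above, had the largest called difference towards Cabernet Sauvignon, 1.41 ± 0.27 on the log2 scale (SE, edgeR adjusted p = 0.00162). Cabernet Sauvignon lay above Aglianico in all libraries used at Campania and Sicily, while the varieties overlapped at Molise. The adjusted p ranged from 2.39e-07 to 0.0537 over the 27 settings, and the highest value was that with the left-out library under its label, where the difference was 0.98.

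At Campania alone, 9 of the 62 members (14.5%) differed between the varieties, against 13.5% of all clusters tested (6.85% higher and 6.62% lower in Cabernet Sauvignon). Of the higher members 4 were lower in Cabernet Sauvignon and 0 were higher. Of the lower members 3 were higher in Cabernet Sauvignon and 2 lower, the latter from the set of 3 that moved together. The count was 4 without Cabernet Sauvignon Campania replicate 1, where the share of all clusters tested fell too, to 9.22%. Leaving out an Aglianico Campania library left 1 in that group, and the counts of those fits are not compared. With all 18 libraries under their labels edgeR called 0 of the 62 and 0 of 27519 clusters at Campania. In that fit 12 members and 3869 clusters had an unadjusted p under 0.05, and DESeq2 on the same libraries called 4 of the 62 and 3.26% of all clusters.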

How the data were processed

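The deposited values are expected counts, estimates in which a read can be divided between clusters, and they cover 97442 transcript clusters in 18 libraries with no scaling to a common depth. CASAVA 1.8, RSEM and DESeq2 are named, with no role, in the submitters' processing notes. Not given in the sources used here: aligner, assembler and genome build. Of the values of a library, 5.6% to 7.78% were not whole. Columns were matched to samples by their labels, and 1 Cabernet Sauvignon Sicily column without a legible replicate number was matched to its group only.

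Members were found on 17 libraries. Size factors (0.696 to 1.262, and 1.403 for the left-out library) were medians of ratios over the kept clusters, and a normalised count is the count divided by the size factor. All pairs of libraries differed by more than sampling noise (lowest chi-square per degree of freedom 21.7). Variety differences were tested with edgeR 4.0.16 (R 4.3.3, TMM scaling, filterByExpr, 6 group means, quasi-likelihood test) on counts rounded to whole numbers, with Benjamini-Hochberg adjustment over all clusters tested. The steps were run on simulated data as a check of the code only. For the rule, the simulated counts had no spread between replicates beyond counting error, and larger changes than the higher members. They do not show how many members are false. The standard error is the log2 difference divided by the square root of F. Alternatives were other scalings, count minimums and thresholds, DESeq2 1.42.0, limma-voom (limma 3.58.1), and leaving out libraries.

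The members and the rule were chosen with earlier results of these data known. Without gene names, the clusters named were 1 with the largest smaller distance and 1 with the most counts in each direction, and the called member with the largest variety difference in each direction.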

Additional observations from a re-analysis of the deposited data

Results flagged for a closer look

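Cluster-27903.36453, a lower member, differed between the varieties in the order of Molise and Sicily. Every Sicily library lay below every Molise library in Aglianico (Sicily minus Molise -2.23 on the log2 scale) and above every Molise library in Cabernet Sauvignon (0.92), so the difference between the varieties was 3.15. The difference was not tested. Of the kept clusters, 2.4% showed this opposite order without overlap, as did 1 of the 25 lower and 0 of the 37 higher members.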

How the results depend on the processing

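The numbers of higher and lower clusters were 37 and 24 under TMM and 55 and 27 under upper-quartile scaling, which raised the median Campania offset of Cabernet Sauvignon by 0.12 (log2). Over all clusters with a count in every library, the size factors gave 20 higher. A minimum of 10 counts gave 67 higher and 46 lower, a minimum of 50 gave 12 higher, a threshold of 0.5 gave 60 higher, and a threshold of 1 gave 1 higher and 9 lower. Leaving out single libraries gave 27 to 93 higher and 15 to 41 lower. The choice of members by their site means in part fixes the side of the left-out library. Of the members at a threshold of 1, it stood on the Campania side for 1 of 1 higher and 9 of 9 lower, against either variety (34.4% to 34.6% of the kept clusters). With counts scaled by library totals alone it did so against Aglianico for 33 of the 37 higher members (64.4% of the kept clusters) and 17 of the 25 lower members (9.76%), and against Cabernet Sauvignon for 36 (49.2%) and 22 (15.4%).

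The number of members with a variety difference averaged over sites was 16 (no filter, 5.6% of all clusters called) to 24 (DESeq2, 35% called) under the other settings. Without single libraries, those of Aglianico Campania aside, it was 20 to 23, with 26.7% to 31.2% of all clusters called. At Campania it was 2 with no filter (1.67% of all clusters) and 15 by DESeq2 (19.5%). With all 18 libraries it was 0 by edgeR (0%) and 4 by DESeq2 (3.26%). Without single libraries, those of Aglianico Campania aside, it was 4 to 10 (9.22% to 16.9%). Leaving out an Aglianico Campania library leaves 1 there, assumed to vary like the other groups, and the filter then admits more scarce clusters (55802 without replicate 1). The counts of those fits are therefore left out of these ranges. With the replicate number as a block, on the libraries that carry one, 20 members were called on average and 9 at Campania (29.7% and 13% of all clusters). Without the block, 22 and 8 were called (29.1% and 13.5%). The numbers were not shown to pair the samples: deviations of the 7 same-numbered pairs of a site correlated at -0.176 to 0.379, and 4 were over 0.1. The comparison without the block and that by DESeq2 on all 18 libraries were added after seeing the data. The cause of these shifts was not tested.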
